A study of Mus musculus with 6 samples.

Results

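Transcripts of 8 genes of the extracellular matrix were followed in the liver: the small leucine-rich proteoglycans Dcn, Bgn, Lum, Fmod, Prelp and Ogn, their partner dermatopontin (Dpt), and versican (Vcan). They were taken by name from a count table of 41388 genes, in which each of the 8 names matched 1 gene. The genes were selected on their levels and fold changes in the same 6 pools that are described here, so their levels and differences are given as a description, no p-value of theirs is printed, and the number of them called supports nothing. Dpt carries no glycosaminoglycan chain and Vcan is a hyalectan, a large proteoglycan that binds hyaluronan, so that 6 of the 8 genes belong to the small leucine-rich family.

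Male C57BL/6 mice with floxed Mttp alleles and the tamoxifen-inducible Villin-Cre ERT2 transgene received tamoxifen for 5 days (Mttp-IKO) or vehicle (control, named wild type in the labels). Mttp encodes microsomal triglyceride transfer protein, which loads lipid onto nascent chylomicrons, and Villin drives the recombinase in intestinal epithelium, so the liver carried no intended deletion. All mice then ate a methionine- and choline-deficient (MCD) diet, which brings on steatohepatitis and fibrosis, for 3 weeks, beginning 3 weeks after tamoxifen, and were 12 to 16 weeks old. Livers were taken after a fast of 4 h, RNA of 3 to 4 mice was combined into each pool, and 3 pools per genotype were sequenced after removal of ribosomal RNA. A replicate is therefore a pool of several livers, and the spread between pools understates the spread between mice.

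Small leucine-rich proteoglycans are secreted core proteins built around leucine-rich repeats, most of which carry chondroitin, dermatan or keratan sulfate chains. They coat collagen fibrils and set their spacing and diameter, and decorin and biglycan also bind TGF-β family growth factors and cell surface receptors. In liver they are made mostly by stellate cells, portal fibroblasts and other mesenchymal cells, and are known to accumulate in scar tissue.

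Levels are given as CPM, read counts scaled to library size, after TMM scaling, which also corrects each library for its composition, and, for comparisons between genes, as RPKM, the same value per kb of gene length. The libraries held 25271585 to 36238734 assigned reads. Alb, the main hepatocyte product, was at 40131 to 132236 CPM. Mttp itself was at 90.4 to 186 CPM, which does not check the labels, because the deletion is confined by its promoter to another tissue. Transcripts of striated muscle stood apart between the control pools: a list of 12 such markers summed to 303 CPM in control pool 1, 2307 in control pool 2 and 6.75 in control pool 3, against 13.4 to 18.0 in the Mttp-IKO pools. Values without control pool 2 and for control pool 3 alone are therefore given below.

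The RefSeq table (GRCm38.p6) held promoters of 6 of the 8 genes, Bgn, Dpt, Fmod, Ogn, Prelp and Vcan. The 250 bases before the start of Dpt, Ogn and Bgn, on the strand of the gene, are shown because these genes differed in the size of their decrease and in base composition. Capitals mark matches on either strand to TATAAA (the TATA box), CCAAT (the CCAAT box), TGANTCA (known for AP-1), CATTCC (known for TEAD factors), CAGACA (known for SMAD factors) and GGGCGG (known for SP1), and no match overlapped another motif.
Dpt (chr1:164796413-164796662, plus strand): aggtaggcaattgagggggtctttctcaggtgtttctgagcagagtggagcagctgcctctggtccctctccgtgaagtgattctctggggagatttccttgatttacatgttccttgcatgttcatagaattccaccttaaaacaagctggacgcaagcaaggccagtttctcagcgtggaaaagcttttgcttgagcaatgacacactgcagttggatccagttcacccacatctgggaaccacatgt
Ogn (chr13:49607765-49608014, plus strand): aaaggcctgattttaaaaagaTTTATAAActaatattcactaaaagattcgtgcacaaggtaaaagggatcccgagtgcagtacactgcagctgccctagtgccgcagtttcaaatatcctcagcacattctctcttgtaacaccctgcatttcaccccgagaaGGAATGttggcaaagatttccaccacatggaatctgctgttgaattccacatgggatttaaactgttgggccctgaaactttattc
Bgn (chrX:73483351-73483600, plus strand): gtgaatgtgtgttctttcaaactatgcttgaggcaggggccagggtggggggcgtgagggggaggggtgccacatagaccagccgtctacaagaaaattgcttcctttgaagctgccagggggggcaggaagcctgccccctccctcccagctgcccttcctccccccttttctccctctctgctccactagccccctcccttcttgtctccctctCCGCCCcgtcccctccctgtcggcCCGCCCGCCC

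The 3 stretches shared little in composition. G and C made up 48.8% of the bases before Dpt, 42.0% of those before Ogn and 64.4% of those before Bgn, against a median of 52.4% over all promoters. Over the 300 bases that run to 50 bases past the start, GGGCGG was found in Bgn and Vcan and in 35.7% of 32851 promoters, and the 3 matches in Bgn, of which the last pair overlap by 2 bases, lay within its last 34 bases. CCAAT was found in Prelp, Fmod and Vcan (37.4% of all promoters), and TATAAA in Ogn and Dpt (13.6%), the match in Dpt lying 13 bases into the RefSeq transcript. Ogn alone held CATTCC (14.7% of all promoters), Prelp alone held CAGACA (21%), and none held TGANTCA (7.81%). No motif was found in more than 3 of the 6 promoters.

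All 8 genes had lower mean levels in Mttp-IKO than in control livers. The differences ran from 8.52-fold for Dpt to 1.36-fold for Dcn. The median log2 fold change of the 8 was -1.43, and that of all 17287 genes tested was 0.0057. For 6 of the 8 every Mttp-IKO pool lay below every control pool, and among all genes tested 16.5% did so. With edgeR's quasi-likelihood test, 4 of the 8 (Dpt, Lum, Bgn and Fmod) had an adjusted p under 0.05 and were lower, and among all genes tested 3.09% were. Nothing is read from these shares, because the same comparison had chosen the genes. In a tissue sample, fewer cells of a type and less RNA per cell cannot be told apart.

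**Figure D1:**
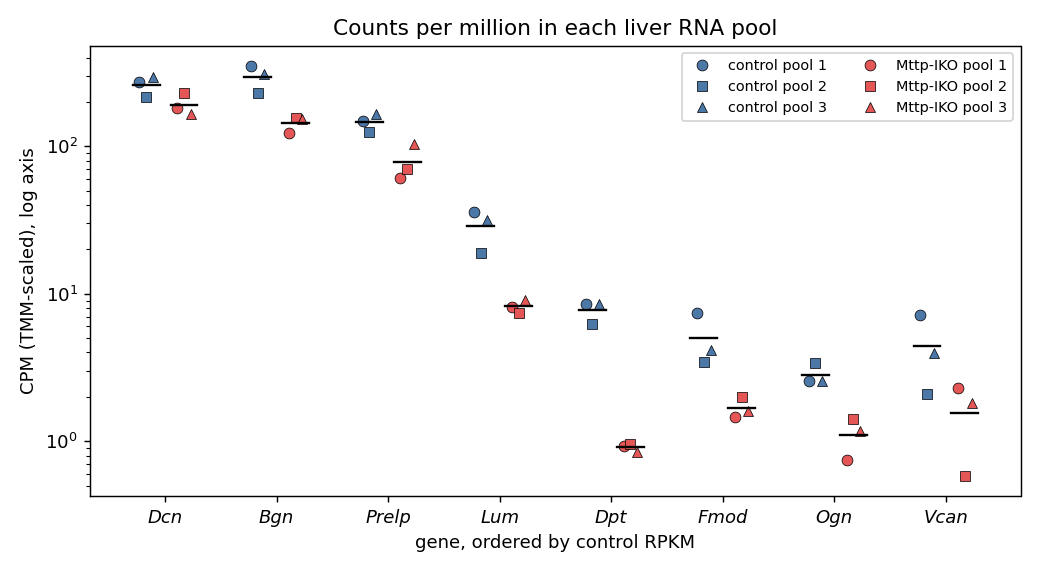
Each point is 1 liver RNA pool and each bar the mean of 3 pools, with TMM-scaled CPM on a log axis and the genes in order of control RPKM. The control and Mttp-IKO pools overlap for Dcn and Vcan and are apart for the other 6 genes, by the widest margin for Dpt.

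Decorin and biglycan, the class I members, carry chondroitin or dermatan sulfate and are the best known collagen and growth factor binders of the family. Dcn (chromosome 10, 97479500 to 97518162, GRCm38) was at 273, 216 and 295 CPM in control pools 1, 2 and 3 and at 183, 229 and 165 CPM in Mttp-IKO pools 1, 2 and 3. Mttp-IKO pool 2 lay above control pool 2, so the groups overlapped. Its means were 261 ± 40.7 and 192 ± 33.5 CPM (SD, n = 3 pools), a log2 fold change of -0.44 with a standard error of 0.200. Bgn (X, 73483602 to 73495933) was at 348, 229 and 309 CPM in the control pools and at 123, 156 and 152 CPM in the Mttp-IKO pools, in pool order. Control pool 2 was the lowest of its group and stood above every Mttp-IKO pool. Means of 296 ± 60.6 and 144 ± 18.2 CPM gave a log2 fold change of -1.04 with a standard error of 0.208.

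Lumican, fibromodulin and Prelp belong to class II. Lumican and fibromodulin bind collagen I and guide fibril growth, while Prelp binds both collagen and the heparan sulfate of perlecan. Lum (chromosome 10, 97565501 to 97572703) was at 36, 19.0 and 31.7 CPM in the control pools and at 8.19, 7.44 and 9.14 CPM in the Mttp-IKO pools. Control pool 2 was well below the other controls and was still above all Mttp-IKO pools, which lay close together. The means were 28.9 ± 8.86 and 8.26 ± 0.854 CPM, a log2 fold change of -1.81 with a standard error of 0.252. Fmod (chromosome 1, 134037254 to 134048277) was at 7.39, 3.47 and 4.15 CPM in control pools and at 1.45, 1.99 and 1.59 CPM in Mttp-IKO pools. Control pool 1 carried the highest value and the groups did not overlap. Its means of 5.0 ± 2.09 and 1.68 ± 0.279 CPM gave a log2 fold change of -1.58 with a standard error of 0.342, which was -1.20 without control pool 1. Prelp (chromosome 1, 133910304 to 133921414, minus strand) was at 149, 126 and 166 CPM in control pools and at 61.2, 69.9 and 104 CPM in Mttp-IKO pools. Mttp-IKO pool 3 came nearest to the controls without reaching them. Prelp means were 147 ± 20.2 and 78.4 ± 22.7 CPM, a log2 fold change of -0.91 with a standard error of 0.231.

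Osteoglycin, a class III member that also shapes collagen fibrils, was among the rarer transcripts. Ogn (chromosome 13, 49608071 to 49624500) was at 2.55, 3.38 and 2.56 CPM in control pools and at 0.741, 1.41 and 1.17 CPM in Mttp-IKO pools, from 82 to 122 and from 23 to 41 reads. It was the only one of the 8 genes with its highest control value in control pool 2. Means of 2.83 ± 0.476 and 1.11 ± 0.337 CPM gave a log2 fold change of -1.36 with a standard error of 0.326, without overlap between groups.

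Dermatopontin, which binds decorin and fibronectin and speeds collagen fibril formation in vitro, showed the widest difference. Dpt (chromosome 1, 164796732 to 164824266, 4 exons) had 344, 224 and 274 reads in the control pools and 29, 28 and 20 reads in the Mttp-IKO pools. In CPM these were 8.53, 6.21 and 8.56 against 0.935, 0.960 and 0.839. The Mttp-IKO pools were nearly alike, and all lay far below the lowest control pool. Its means of 7.77 ± 1.35 and 0.911 ± 0.0640 CPM gave a log2 fold change of -3.08 with a standard error of 0.248, and leaving out each pool in turn kept it between -3.24 and -3.03.

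Versican swells and loosens matrix by holding hyaluronan, and is cut by ADAMTS proteases as tissue is remodelled. Vcan (chromosome 13, 89655312 to 89742509, minus strand) was at 7.22, 2.08 and 3.97 CPM in control pools and at 2.29, 0.583 and 1.80 CPM in Mttp-IKO pools. Mttp-IKO pool 1 lay just above control pool 2, and in both genotypes pool 2 was lowest. The means were 4.42 ± 2.60 and 1.56 ± 0.879 CPM. The log2 fold change of -1.5 had a standard error of 0.576, the widest of the 8 genes, and was -0.97 without control pool 1.

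The differences were present without control pool 2, which held the most muscle transcripts. That fit keeps control pool 1, where the muscle markers summed to 303 CPM. Without control pool 2 the log2 fold changes of the 8 genes ran from -3.24 (Dpt) to -0.58 (Dcn), with a median of -1.52. In control pool 3, where striated muscle markers were no higher than in Mttp-IKO livers, 8 of 8 genes were above every Mttp-IKO pool. The level in that single pool was 9.39 times the Mttp-IKO mean for Dpt and 1.53 times for Dcn, with the other 6 between. This last comparison rests on 1 control pool and has no error.

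Per kb of gene length, Dcn was the most abundant of the 8 in both genotypes, at 125 ± 19.5 RPKM in control and 92.2 ± 16.1 RPKM in Mttp-IKO livers. Bgn followed at 48.5 ± 9.94 and 23.6 ± 2.98 RPKM and Prelp at 40.7 ± 5.60 and 21.7 ± 6.29 RPKM. On this scale their pools overlapped in both genotypes. Control levels then stepped down to 13.9 ± 4.27 RPKM for Lum and 4.75 ± 0.823 RPKM for Dpt. Fmod at 1.51 ± 0.634 RPKM and Ogn at 1.12 ± 0.188 RPKM overlapped, and Vcan was lowest on this scale at 0.306 ± 0.180 RPKM. In Mttp-IKO livers Dpt, at 0.557 ± 0.0391 RPKM, overlapped with Fmod and Ogn. Ranked by RPKM among all genes tested, Dpt stood at the 60.3 percentile in control and at the 19.5 percentile in Mttp-IKO livers, and Dcn at the 97.9 and 97.3 percentiles.

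These gene lengths join the exons of every transcript, including stretches that the main transcript lacks. This bears on Bgn and Vcan, whose joined lengths are 6099 and 14462 bases. Per kb of its principal spliced transcript in GENCODE M21, which is 2419 bases long, Bgn was at 122 ± 25.1 in control livers against 149 ± 23.1 for Dcn. On that scale, chosen after the values were seen, the Dcn to Bgn ratio was 1.08 to 1.31 in control and 1.49 to 2.05 in Mttp-IKO pools. With the joined lengths the same ratio was 2.29 to 2.79 and 3.16 to 4.35. The order of Dcn and Bgn was the same on both scales, and the gap between them was not. The place of Vcan was not kept. Per kb of its principal transcript, 2321 bases long, Vcan was at 1.90 ± 1.12 in control livers. Fmod was at 1.60 ± 0.671 and Ogn at 1.10 ± 0.186 on that scale. In Mttp-IKO livers Vcan was at 0.671 ± 0.379, Fmod at 0.538 ± 0.0894 and Dpt at 0.529 ± 0.0371. Vcan reads in exons that this transcript lacks were still counted, so its rank is not settled.

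The 3 genes with the highest RPKM had the smallest differences, and the mixture of the 8 transcripts was therefore not the same in the 2 genotypes. Dcn made up 53.2 ± 1.66% of their summed RPKM in control and 64.3 ± 6.43% in Mttp-IKO livers, and its share was higher in every Mttp-IKO pool. Dpt made up 2.01 ± 0.0292% and 0.392 ± 0.0412%, and Lum 5.80 ± 1.0% and 2.82 ± 0.507%. The share of Prelp was 16.1 to 18.2% in control pools, and 13, 12.1 and 20.8% in Mttp-IKO pools 1, 2 and 3, so it moved both ways. Dcn and Lum lie 47.3 kb apart on chromosome 10, and the ratio of their RPKM was 7.55 to 11.3 in control and 17.9 to 30.7 in Mttp-IKO pools. All these shares rest on the joined gene lengths. Per kb of principal transcript the mean share of Dcn was 44.8% in control and 55.7% in Mttp-IKO livers, and that of Bgn 36.7% and 30.3%.

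**Figure D2:**
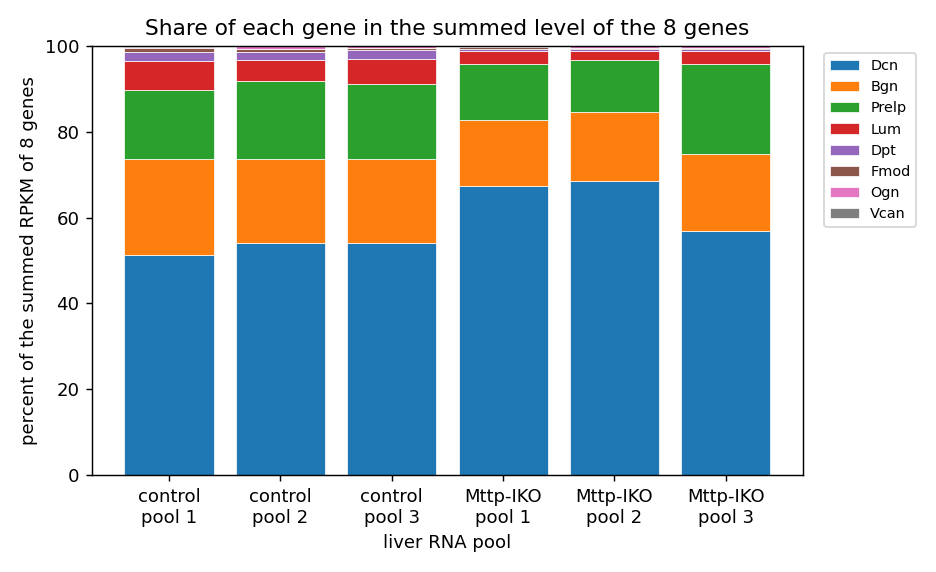
Stacked bars give the percent that each of the 8 genes made up of their summed RPKM, from the joined gene lengths, in each liver RNA pool. The Dcn share is 51.3 to 54.1% in control and 56.9 to 68.6% in Mttp-IKO pools, while the Lum and Dpt bands are narrower in each Mttp-IKO pool.

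Pools of a genotype differed in a partly shared way. Control pool 2 held the lowest control value of 7 of the 8 genes, Ogn being the exception, while control pool 1 held the highest value of 4. Among Mttp-IKO pools the lowest values were spread, 4 genes in pool 1, 2 in pool 2 and 2 in pool 3. Over all 6 pools the 28 pairs of genes had Pearson correlations of log2 CPM from 0.41 (Ogn with Vcan) to 0.97 (Bgn with Lum), which carry the genotype difference that all 8 share. After each genotype's mean was taken out, the correlations ran from -0.82 (Ogn with Vcan) to 0.84 (Dcn with Dpt), with a median of 0.35. Bgn with Fmod (0.83) and Bgn with Lum (0.81) stayed high, while Prelp with Dcn (-0.05) did not. These are descriptions over 6 pools that also share library depth and tissue make-up.

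Among 12532 other genes with an average log2 CPM of at least 1, those whose log2 CPM over the 6 pools was most like the mean standardised profile of the 8 were Fbn1, Ciita, Pamr1, Kcnj2 and Hic1, each with a Pearson r above 0.99. Fbn1, the microfibril protein fibrillin, was at 50.3, 27.0 and 41.9 CPM in control pools and at 8.38, 10.6 and 10.8 CPM in Mttp-IKO pools. Of the genes compared, 399 had an r above 0.95. The 5 genes were picked for their r, and each was lower in every Mttp-IKO pool, so that r carries the genotype difference.

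Of 12 other small leucine-rich proteoglycans listed, Kera and Epyc, which lie beside Lum on chromosome 10 and are known from cornea and cartilage, had no read in any pool. Aspn, at 0.0839 to 0.721 CPM, was too low to test. None of the 9 that were tested was called by edgeR or limma-voom and 1 was by DESeq2 (Podn), which called 7.74% of all genes lower, 2 had an unadjusted edgeR p under 0.05 (Ecm2 and Podn), and the median log2 fold change was -0.38. Tsku, a secreted class IV member made by hepatocytes, was at 334 ± 66.6 CPM in control and 470 ± 156 CPM in Mttp-IKO livers (edgeR log2 fold change 0.49 ± 0.274 SE, adjusted p = 0.324). Podn, at 15.1 ± 1.66 and 9.37 ± 1.68 CPM, had a log2 fold change of -0.69 and an edgeR adjusted p of 0.0862, although its groups did not overlap. Chad was at 7.74 ± 0.689 and 7.04 ± 1.5 CPM (edgeR adjusted p = 0.739). Of neighbours on the chromosome, Omd, 15.5 kb from Ogn, was at 1.81, 3.27 and 3.12 CPM in control pools and at 1.35, 2.81 and 1.72 CPM in Mttp-IKO pools, and Optc, 2.31 kb from Prelp, had a mean that was higher in Mttp-IKO, with overlapping groups.

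**Figure D3:**
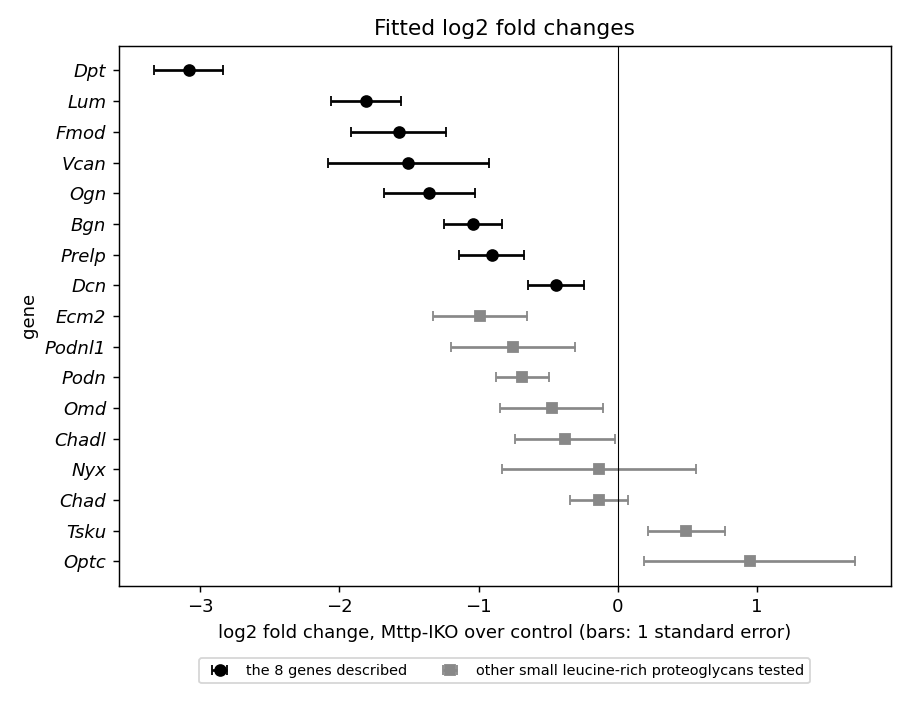
Points are fitted log2 fold changes of Mttp-IKO over control and bars are 1 standard error, for the 8 genes (circles) and the 9 other small leucine-rich proteoglycans that were tested (squares). The 8 genes lie between -3.08 and -0.44, and of the others 7 lie below 0 and Tsku and Optc above it.

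Whether the enzymes, partners and proteases of these core proteins moved with them was asked with 6 lists of 112 genes in all, 92 of which were tested. Of these, 8 fell and 1 rose by edgeR, with a median log2 fold change of -0.34. Of all genes tested, 3.09% were called lower and 0.92% higher. Every call in these lists was lost when control pool 1, control pool 3, Mttp-IKO pool 1 or Mttp-IKO pool 2 was left out (0 of 92 to 94 tested, with 27 to 34 at an unadjusted p under 0.05), while without control pool 2 12 fell, and without Mttp-IKO pool 3 there were 9 lower and 2 higher.

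**Figure D4:**
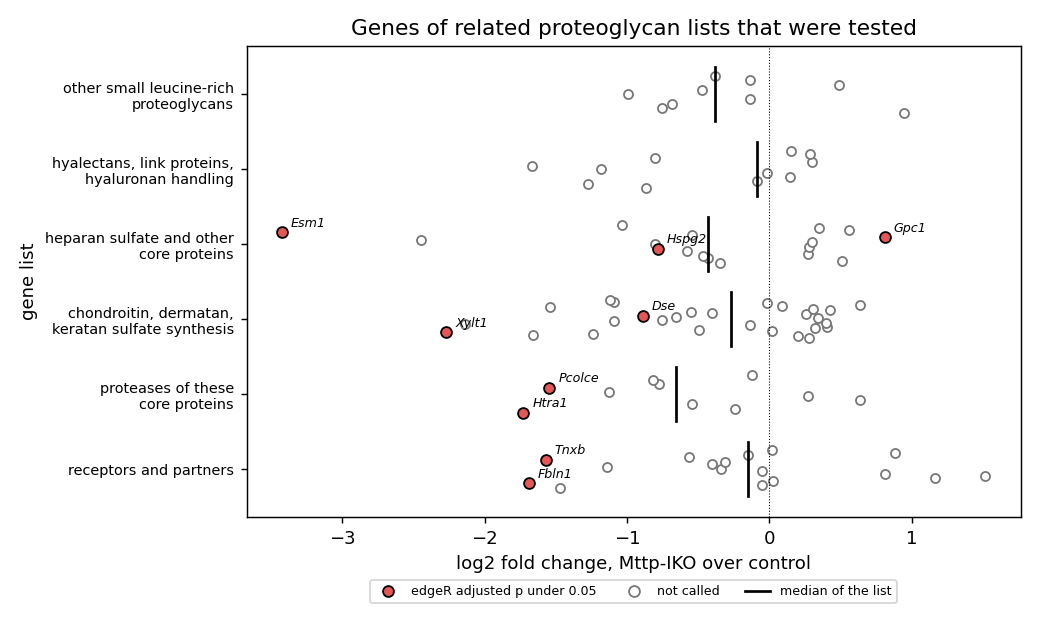
Each point is the log2 fold change of Mttp-IKO over control for 1 tested gene in 6 lists, filled where the edgeR adjusted p was under 0.05, and the upright line is the median of the list. The 9 named genes are the calls, of which Gpc1 alone lies above 0, and every list has its median below 0.

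Among 28 tested enzymes that build chondroitin, dermatan and keratan sulfate, 2 fell and none rose, with a median of -0.27. Xylt1, a xylosyltransferase that starts glycosaminoglycan chains on core proteins, was at 6.72, 2.19 and 5.97 CPM in control pools and at 0.709, 1.44 and 0.923 CPM in Mttp-IKO pools (edgeR log2 fold change -2.27 ± 0.478 SE, adjusted p = 0.0437). Dse, the epimerase that turns chondroitin into dermatan sulfate, fell from 23.3 ± 3.80 to 12.6 ± 0.658 CPM (edgeR log2 fold change -0.89 ± 0.17 SE, adjusted p = 0.0347). With the pool number as a block, Xylt1 and Dse missed the threshold (edgeR adjusted p = 0.0810 and 0.0624). Xylt1 also missed it with limma-voom (adjusted p = 0.0892). Ugdh, which makes the UDP-glucuronate that the chains are built from, was at 155 ± 15.3 and 65.5 ± 26.1 CPM and missed the threshold (edgeR adjusted p = 0.0634). B3gat3 and Chst15 had log2 fold changes of -0.02 and 0.02.

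Among heparan sulfate and other core proteins, 2 of 17 tested fell and 1 rose, with a median of -0.43. Esm1, a dermatan sulfate proteoglycan of endothelium, was at 7.56, 1.39 and 5.09 CPM in control pools and at 0.612, 0.412 and 0.252 CPM in Mttp-IKO pools (edgeR log2 fold change -3.43 ± 0.652 SE, adjusted p = 0.0340). With limma-voom Esm1 missed the threshold (adjusted p = 0.108). Hspg2, the basement membrane proteoglycan perlecan to which Prelp binds, fell from 291 ± 34.3 to 169 ± 12.1 CPM (edgeR log2 fold change -0.78, adjusted p = 0.0456). With the pool number as a block Hspg2 missed the threshold (edgeR adjusted p = 0.0826). The glypican Gpc1, anchored to the cell surface, rose from 78 ± 5.88 to 137 ± 17.1 CPM (edgeR log2 fold change 0.81, adjusted p = 0.0383). Gpc1 missed the threshold when total counts replaced TMM (0.63, edgeR adjusted p = 0.0602) and with the pool number as a block (edgeR adjusted p = 0.0598). The syndecans Sdc4 and Sdc1 and the glypican Gpc4 had log2 fold changes of 0.51, -0.47 and 0.30 and were not called.

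None of 11 tested hyalectans, link proteins and genes of hyaluronan handling was called by edgeR or limma-voom. DESeq2 called 1 of them lower, and 7.74% of all genes. In edgeR 3 had an unadjusted p under 0.05, and the median was -0.09. Stab2, a hyaluronan receptor of sinusoidal endothelium, was at 152 ± 33.8 CPM in control and 169 ± 16.6 CPM in Mttp-IKO livers. Lyve1, the hyaluronan receptor of lymphatic and sinusoidal endothelium, was at 42.8 ± 22.9 and 24.6 ± 6.42 CPM. Hyal2, a hyaluronidase, was at 69.5 ± 3.74 and 76.7 ± 5.74 CPM. The other hyalectans Acan, Bcan and Ncan were too low to test, so Vcan was the only core protein of its class with a level that could be followed.

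Of 10 tested proteases that process or cut these proteins, 2 fell and none rose, with a median of -0.66. Htra1, a secreted serine protease known to cut decorin, biglycan and fibromodulin, fell from 3.52 ± 0.317 to 1.06 ± 0.339 CPM (edgeR log2 fold change -1.73, adjusted p = 0.0306). Pcolce, which is no protease but speeds the removal of collagen propeptides, fell from 23.3 ± 4.20 to 7.96 ± 1.85 CPM (edgeR log2 fold change -1.55, adjusted p = 0.0192). Bmp1, the enzyme that removes those propeptides and the propeptide of biglycan, was at 103, 134 and 115 CPM in control pools and at 178, 192 and 176 CPM in Mttp-IKO pools, and missed the threshold (edgeR log2 fold change 0.64, adjusted p = 0.0720).

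Among receptors and partners, 2 of 17 tested fell and none rose, with a median of -0.15. Tnxb, a tenascin that links collagen fibrils with decorin, fell from 121 ± 3.02 to 40.7 ± 11.7 CPM (edgeR log2 fold change -1.57, adjusted p = 0.0181), and the matrix protein fibulin Fbln1 from 8.78 ± 1.60 to 2.73 ± 0.877 CPM (-1.69, edgeR adjusted p = 0.0287). The decorin receptors Lrp1 and Egfr and the integrin subunit Itgb1 were not called. Egfr was at 233 to 258 CPM in control pools and at 284, 422 and 1432 CPM in Mttp-IKO pools, so that 1 pool held most of its difference (edgeR log2 fold change 1.52, adjusted p = 0.151).

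Markers of the cells that could hold these transcripts were summed in each pool. The 8 genes summed to 606 to 832 CPM in control and 380 to 468 CPM in Mttp-IKO pools. The 10 stellate cell markers summed to 718 to 854 and 482 to 625 CPM, and 5 of the 10 fell by edgeR (Lrat, Ngfr, Pdgfrb, Cygb and Colec11), where 3.09% of all genes were called lower. The abundant Ecm1, at 199 ± 5.99 CPM in control and 204 ± 22.3 CPM in Mttp-IKO livers, was not called, nor was Reln, at 282 ± 31.8 and 208 ± 41.1 CPM. Portal fibroblast markers summed to 82.5 to 107 and 23.5 to 36.2 CPM, with 3 of 10 called lower (Gsn, Mfap4 and Fbln2), and vascular smooth muscle markers to 58.0 to 90.6 and 21.6 to 28.6 CPM, with 4 of 7 called lower. Macrophage markers, 688 to 1465 against 388 to 462 CPM, had 3 of 8 called lower. For mesothelial markers the sums overlapped, at 23.4 to 34.7 and 11.8 to 29.8 CPM, and 0 of 7 were called by edgeR, DESeq2 or limma-voom, with 0 at an unadjusted p under 0.05. Hepatocyte markers summed to 64289 to 97991 and 122763 to 174185 CPM, most of it Alb. Ttr alone of them had a lower mean in Mttp-IKO livers, at 3296 ± 511 CPM in control and 2252 ± 687 CPM in Mttp-IKO livers. Of 7 tested, 0 were called by edgeR or limma-voom and 4 were called higher by DESeq2, which called 3.8% of all genes higher, and 5 had an unadjusted edgeR p under 0.05. The part of these cell markers in the levels of the 8 genes was not tested.

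Other connective tissue was looked for in the same way. Tendon and fascia markers summed to 2.81 to 7.54 and 2.48 to 3.57 CPM, with 1 of 4 tested called lower (Cilp), and the defining marker Tnmd was at 0 in 5 of 6 pools. Adipocyte markers summed to 22.9 to 35.6 and 2.31 to 12.0 CPM, and the groups did not overlap. Fabp4, which other cells also make, held most of the sum in 5 of the 6 pools, with 24.3, 14.9 and 21.4 CPM in control pools 1, 2 and 3. In control pool 2 Cfd, an adipocyte product, was at 16.4 CPM, against 0.62 and 1.09 CPM in the other control pools and 0.774 CPM at most in Mttp-IKO pools. The defining markers Plin1 and Adipoq were at 1.86 and 1.52 CPM in control pool 2, and at or below 0.294 and 0.129 CPM in the others. Control pool 2, which had the most muscle transcripts, had the lowest control value of 7 of the 8 genes.

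**Figure D5:**
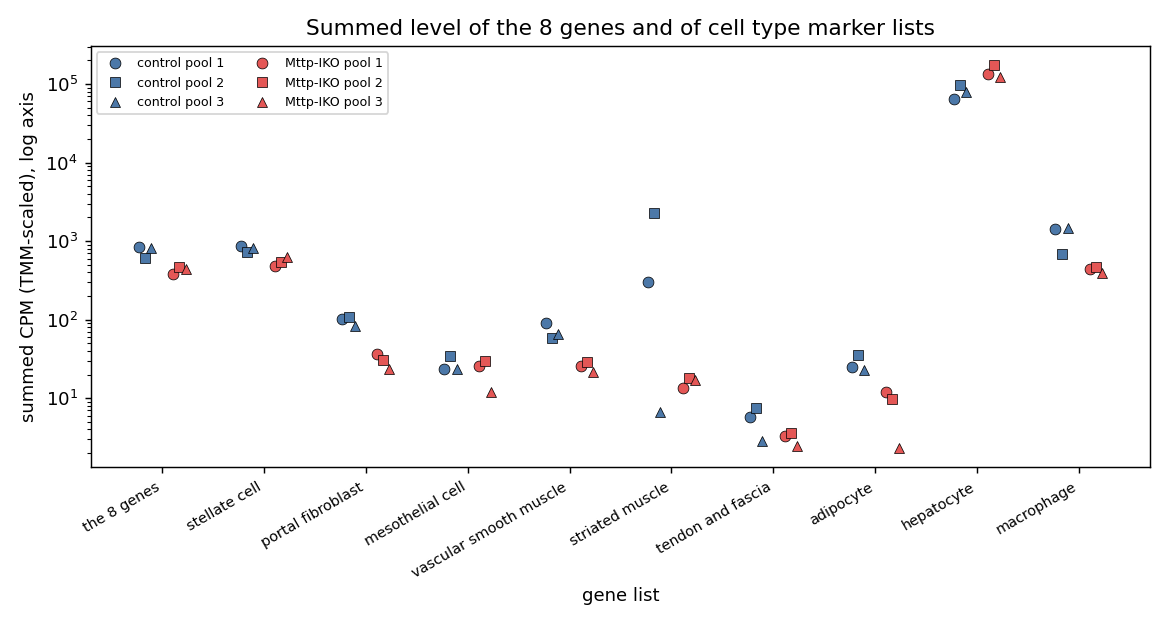
Each point is 1 liver RNA pool, and the log axis gives the summed TMM-scaled CPM of the 8 genes and of 9 cell type marker lists. The 8 genes and the stellate, portal fibroblast, vascular smooth muscle and macrophage lists are lower in every Mttp-IKO pool, and striated muscle markers reach 2307 CPM in control pool 2.

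Some reads could belong to other transcripts. On the opposite strand, Cenpp overlaps Ogn and was counted at 0.854 CPM in control and 0.756 CPM in Mttp-IKO livers, and Gm4117 overlaps Vcan at 1.60 and 1.16 CPM. Whether counting used strand was not given in the sources used here. Only unambiguous reads were counted, so without strand a read over exons of both genes would be left out. How far the overlap changed the counts of Ogn and Vcan therefore cannot be told. Gm15851, which overlaps Prelp, was at 0.130 and 0.0665 CPM, far below Prelp. Gm16318, which also overlaps Vcan, was at 0.0208 and 0 CPM.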

How the data were processed

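RNA-Seq of 6 liver RNA pools (3 control, 3 Mttp-IKO) was used. The authors aligned reads with STAR 2.5.1a to GRCm38 with Ensembl release 76 and deposited read counts per gene from featureCounts 1.4.6-p5, counting uniquely aligned, unambiguous reads. Alongside, the deposited files hold CPM and RPKM columns, which follow from those counts and the deposited gene lengths, and were used only as a check. The 8 genes, the 6 related lists and the 9 marker lists were chosen with earlier results of these data known.

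Counts of 41388 genes were fitted in R 4.3.3 with edgeR 4.0.16 (TMM scaling, filterByExpr with a minimum count of 10 and a minimum total of 15, quasi-likelihood test, Benjamini-Hochberg adjustment over the 17287 genes kept, threshold 0.05), after a check on simulated counts. All 8 genes passed the filter. 694 genes were called, 535 lower and 159 higher. CPM were computed from the scaled counts, and RPKM as those CPM per kb of the deposited length. A standard error is that of the log2 fold change. With 25271585 to 36238734 reads per pool, a count of 0 allows up to 3 reads, or 0.0828 to 0.119 CPM, for counting error only. Nothing says that pools come from separate litters, and p-values measure the spread between pools.

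Named were the 8 genes, in each related list the genes called (at most 6) and up to 3 others of highest RPKM, up to 4 markers per list, and the 5 genes most like the mean profile of the 8. Ecm2, Omd, Optc, Aspn, Kera, Epyc, Acan, Bcan, Ncan, Tnmd and the stellate and portal markers outside that rule were named after their values were seen. Alternatives were DESeq2 1.42.0 (size factors and Wald test), limma-voom (limma 3.58.1), total counts, no count filter, at least 1 CPM in 3 pools, the pool number as a block, and leaving out each pool. Lengths of principal transcripts came from GENCODE M21 and figures from matplotlib 3.10.9.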

Additional observations from a re-analysis of the deposited data

How the results depend on the processing

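Each of the 8 genes was lower in Mttp-IKO livers under all 13 alternatives. With single pools left out, the log2 fold change of Vcan ran from -1.91 to -0.97, of Fmod from -1.80 to -1.20 and of Prelp from -1.16 to -0.76. The median log2 fold change of the 8 genes, -1.43, ranged from -1.52 to -1.09 when single pools were left out (-1.09 without control pool 1). Total counts moved the median of all genes to -0.17 and that of the 8 to -1.61, and split the calls into 907 lower and 112 higher, against 535 and 159 with TMM. Of the 8, 4 were called, 3 with limma-voom or the block and 6 with DESeq2's Wald test, total counts or no filter. That number was 0 without Mttp-IKO pool 2, 1 without control pool 1, control pool 3 or Mttp-IKO pool 1, and 4 without either remaining pool. Over all genes, those called lower numbered 535 of 17287 in the edgeR fit, 312 with limma-voom and 449 with the block. They numbered 1338 (7.74%) with DESeq2's Wald test, 907 with total counts and 795 of 27802 without the filter. They were 0, 15, 17 and 32 without Mttp-IKO pool 2, control pool 1, control pool 3 and Mttp-IKO pool 1. They were 771 without control pool 2 and 562 without Mttp-IKO pool 3. Nothing is read from these counts.

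Calls over all genes, 694 in the edgeR fit, numbered 1995 with DESeq2's Wald test, 428 with limma-voom, and 0 to 892 with single pools left out, being 24 without control pool 1, 21 without control pool 3, 55 without Mttp-IKO pool 1 and 0 in edgeR without Mttp-IKO pool 2, where 3221 had an unadjusted p under 0.05. DESeq2's Wald test called 7.74% of all genes lower and 3.8% higher. Of 92 tested in the related lists it called 19 lower and 4 higher. Lower were 1 of 9 other small leucine-rich proteoglycans, 1 of 11 hyalectans and 4 of 17 heparan sulfate core proteins. Also lower were 6 of 28 chain synthesis enzymes, 3 of 10 proteases and 4 of 17 receptors. Higher were 1 heparan sulfate core protein, 1 protease and 2 receptors. Total counts gave 1 for other small leucine-rich proteoglycans, 1 for hyalectans and 5 for chain synthesis. Without the filter there was 1 among hyalectans and 4 in chain synthesis, and limma-voom gave 1 in chain synthesis. Leaving out single pools gave 0 to 1 among hyalectans, 0 to 4 among heparan sulfate core proteins, 0 to 3 in chain synthesis, 0 to 3 among proteases and 0 to 2 among receptors. The cause was not tested.

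The labels do not say whether same-numbered pools were paired. Deviations of same-numbered pools from the group means correlated at 0.14, 0.11 and 0.007. Each pool correlated best with its own number except Mttp-IKO pool 3, which did so with control pool 2 (0.02). These values do not settle whether the pools were linked. With the pool number as a block, 592 genes were called, with 1 among hyalectans, 1 among heparan sulfate core proteins and 0 in chain synthesis. Fold changes of Dpt, Ogn, Fmod and Vcan rest on the fewest reads, down to 17 reads for Vcan in Mttp-IKO pool 2.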
